A study of Mus musculus with 34 samples.

Results

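A set of 10 genes of the integrated stress response, the programme run by the transcription factor ATF4, was followed across 34 mouse livers. The genes were Asns, Trib3, Ddit3, Atf3, Atf4, Atf5, Chac1, Sesn2, Gdf15 and Psat1, chosen as ATF4 targets or partners among the 16079 genes tested. They were found as the non-control probes that carry one of these gene names in the scanner files, which gave 12 of the 55681 probes on the array. All 10 genes had a probe that passed the filter on dim probes (kept when all arrays of 1 or more groups read it well above background).

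In the integrated stress response, kinases that sense amino acid shortage, unfolded protein, haem shortage or viral RNA phosphorylate the initiation factor eIF2. General translation then falls, while the Atf4 message is translated more, and ATF4 protein induces genes for amino acid supply, redox balance and cell fate. Much of the control of ATF4 is therefore on its protein and is not read by an RNA array. In liver the programme responds to diet, fasting, endoplasmic reticulum stress and mitochondrial stress, and its secreted products include GDF15 and FGF21.

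The livers came from male C57Bl/6J mice aged 14 weeks, on a chow diet, gavaged daily for 10 days and killed at zeitgeber time 14 (14 h after lights-on). The groups were KO with fenofibrate (n = 5) or vehicle (n = 3), WT with fenofibrate (n = 4) or vehicle (n = 4), LKO with fenofibrate (n = 5) or vehicle (n = 4), and LWT with fenofibrate (n = 5) or vehicle (n = 4). KO is a Ppara knockout, WT its wild-type comparison, LKO a liver knockout of Ppara, and LWT the wild-type comparison of LKO. The labels name no Cre driver for LKO. Fenofibrate, which activates the nuclear receptor PPARA, was given at 100 mg per kg per day, and the vehicle, gum arabic at 3%, was given to the other groups. Each array held RNA of 1 mouse.

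Levels below are log2 intensities with the 75th percentile of their own array subtracted, so a gene below that percentile has a negative level. Levels of different genes come from different probes and were not set against each other. Changes are log2 differences ± standard error (SE) from limma, and a gene is called at a Benjamini-Hochberg adjusted p under 0.05 over all genes tested. Ppara itself lay between 5.03 and 6.06 in the 8 KO livers and between 6.84 and 7.28 in the 8 WT livers. It lay between 5.84 and 6.21 in the 9 LKO livers and between 6.70 and 7.25 in the 9 LWT livers. The probe stayed well above background in every knockout liver, and whether it lies outside the deleted part was not looked up. Replicates of a group correlated at 0.978 to 0.989 across genes. All 10 hepatocyte markers were measured, and their summed level lay between 12.8 and 13.3 in every liver. That sum is of linear intensities, so the brightest markers dominate it. Of the 10, fenofibrate called 0 higher and 3 lower in WT livers, where 21.3% of all genes were called. In KO minus WT under fenofibrate 3 were called higher and 0 lower (43.1% of all genes called).

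Promoter sequences are shown for the members in which an ATF4-type element fell upstream of the start. ATF4 with a C/EBP partner binds a composite element whose core was searched as TGATGNAA on both strands, in the window from 250 bases before to 50 after each RefSeq start (GRCm38.p6). Of the 13 windows of the 10 members, 4 held the core, and so did 3.97% of all 32851 windows. A match is a run of letters and not a measured binding site. The core is in capitals, 5′ to 3′ in the direction of the gene, and the shown stretches are chr6:7693210-7693262 (minus strand) for Asns, chr1:191183406-191183473 (minus strand) for Atf3 and chr2:119351019-119351086 (plus strand) for Chac1.
Asns: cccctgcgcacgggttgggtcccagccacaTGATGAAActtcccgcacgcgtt
Atf3: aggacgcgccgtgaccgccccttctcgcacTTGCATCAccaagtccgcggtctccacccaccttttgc
Chac1: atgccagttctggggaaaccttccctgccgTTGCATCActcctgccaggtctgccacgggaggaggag
Relative to the start the core lies at -23 in Asns, at -110 in Atf3 and at -193 in Chac1, and in Atf3 and Chac1 it reads on the opposite strand. The core in the fourth gene, Trib3, lies at 15, after the start. No member window held the CRE palindrome TGACGTCA, which 1.79% of all windows held.

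The 10 genes did not move as a block. Across the 8 groups, 4 of the 10 differed by limma's F-test (Psat1, adjusted p = 1.47e-05; Asns, 2.59e-05; Chac1, 0.000118; Atf3, 0.0318). Of all genes tested, 60.5% were called by the same F-test. Trib3, Ddit3, Atf4, Atf5, Sesn2 and Gdf15 were not called by it (adjusted p from 0.116 for Gdf15 to 0.676 for Atf5). The share of variance that lay between groups was 71.3% for Psat1, 69.8% for Asns and 65.9% for Chac1, and 15.9% for Atf5 and 17.6% for Sesn2.

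**Figure D1:**
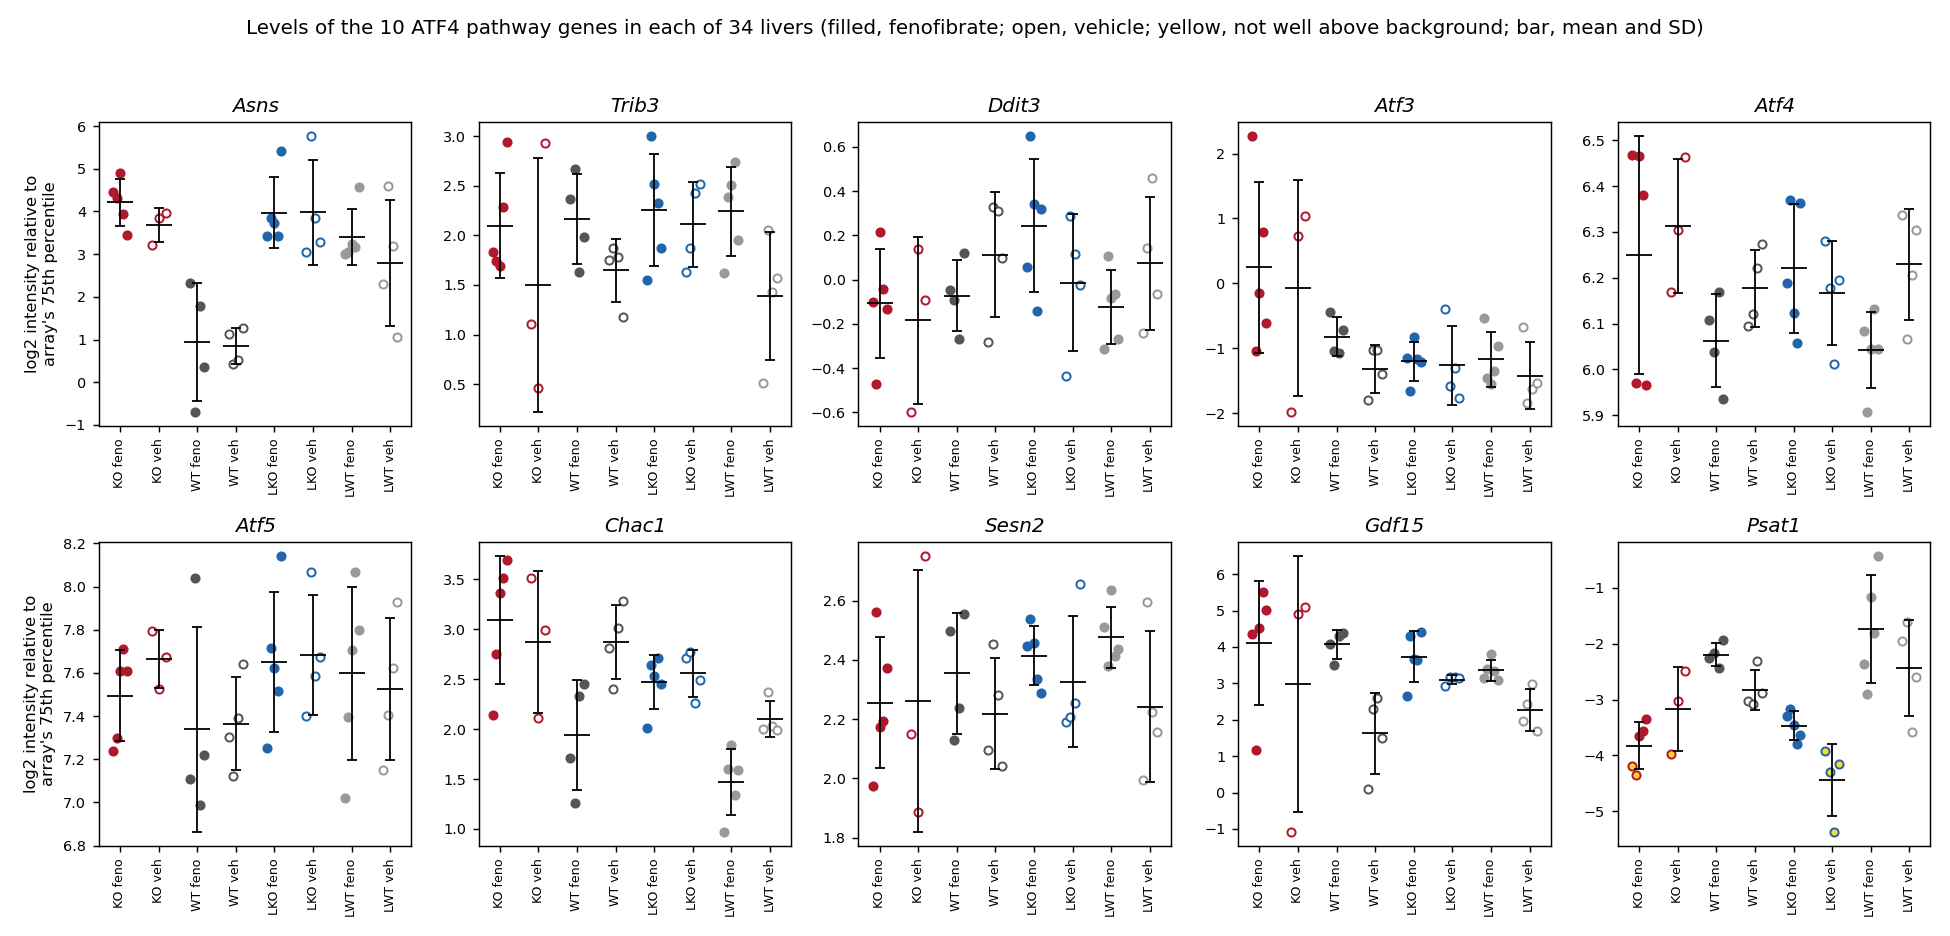
Levels of the 10 genes in each liver (y axis, log2 intensity relative to the array's 75th percentile, with its own scale in each panel) by group (x axis), with filled points for fenofibrate, open points for vehicle, yellow points for values not well above background, and bars for the group mean and SD. Asns is low in the 8 WT livers, and Psat1 is well above background in none of the 4 vehicle LKO livers.

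Fenofibrate called 2 of the 10 genes in WT livers, where 21.3% of all genes were called. Gdf15, a secreted stress cytokine that acts on appetite through a brainstem receptor (probe at chr8:73153293-73153352, mm9), was at 4.09, 3.51, 4.31 and 4.37 in fenofibrate WT livers, against 0.11, 2.31, 2.59 and 1.49 in vehicle WT livers. The groups did not overlap, and the change was 2.45 ± 0.88 (limma, adjusted p = 0.0451), or 5.45-fold. This call sat close to the threshold: leaving out the vehicle WT mouse at 0.11 gave an adjusted p of 0.164, with a change of 1.94, and the call was lost in 17 of the 34 fits that left out 1 array. On the slide that held both groups (1 of 5), the difference was 1.64 (2 fenofibrate and 1 vehicle livers).
Chac1, which encodes an enzyme that degrades glutathione (probe at chr2:119179990-119180049, mm9), went the other way. It was at 1.72, 1.27, 2.33 and 2.45 in fenofibrate WT livers, against 2.81, 2.40, 3.01 and 3.28 in vehicle WT livers, with the highest fenofibrate liver just above the lowest vehicle liver. The change was -0.94 ± 0.30 (limma, adjusted p = 0.0233), and -0.93 on the slide that held both groups. Without the fenofibrate WT mouse at 1.27 the adjusted p was 0.116, and the call was lost in 4 of the 34 fits that left out 1 array.

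In LWT livers fenofibrate called none of the 10 genes by limma, where 17.8% of all genes were called, and 2 of the 10 had an unadjusted p under 0.05. Gdf15 was at 3.15, 3.40, 3.82, 3.35 and 3.08 in fenofibrate LWT livers, against 1.97, 2.44, 2.98 and 1.68 in vehicle LWT livers. These groups did not overlap either, and the change was 1.09 ± 0.83 (limma, adjusted p = 0.413). The SE rests on a spread shared by all 8 groups, and the pooled SD within groups was 1.30 for Gdf15. Its SD was 0.29 in fenofibrate and 0.57 in vehicle LWT livers, against 1.71 and 3.52 in fenofibrate and vehicle KO livers. The 2 genes with an unadjusted p under 0.05 were Trib3 and Chac1. Chac1 was at 0.97, 1.60, 1.84, 1.34 and 1.59 in fenofibrate LWT livers, against 2.01, 2.38, 2.04 and 1.99 in vehicle LWT livers, without overlap (-0.63 ± 0.28, adjusted p = 0.126). Trib3, a pseudokinase that dampens ATF4 signalling, had a change of 0.85 ± 0.38 (adjusted p = 0.128) with overlapping groups.

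Neither knockout had a member called for its drug response. None of the 10 genes was called between fenofibrate and vehicle in LKO livers (0% of all genes called; 1 member with an unadjusted p under 0.05) or in KO livers (0.0124% of all genes called; 0 members with an unadjusted p under 0.05). The Gdf15 differences were 0.63 ± 0.83 in LKO livers and 1.13 ± 0.91 in KO livers, and those of Chac1 -0.09 ± 0.28 and 0.22 ± 0.31, none of them called. The tests of the difference between responses called no member either. That held for LKO minus LWT (6.7% of all genes called, 0 members with an unadjusted p under 0.05), for KO minus WT (11% of all genes called, 2 members with an unadjusted p under 0.05) and for LWT minus WT (0% of all genes called, 0 members with an unadjusted p under 0.05). A different response of Gdf15 or Chac1 in knockouts is therefore not shown: for Chac1, KO minus WT was 1.16 ± 0.43 (adjusted p = 0.0818), and for Gdf15 it was -1.31 ± 1.26 (adjusted p = 0.563).

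Asns was higher in KO than in WT livers under both treatments, and its group means were lowest in WT. It encodes asparagine synthetase, which makes asparagine from aspartate and glutamine and is a classic ATF4 target; its probe lies at chr6:7625171-7625228 (mm9, per the files). Under fenofibrate it was at 4.45, 4.31, 4.91, 3.94 and 3.46 in KO livers, against 2.34, -0.70, 1.79 and 0.35 in WT livers. Under vehicle it was at 3.22, 3.84 and 3.97 in KO livers, against 1.12, 0.43, 0.53 and 1.28 in WT livers. KO and WT did not overlap under either treatment, with changes of 3.27 ± 0.61 (9.63-fold, limma adjusted p = 6.35e-05) under fenofibrate and 2.84 ± 0.69 (7.16-fold, adjusted p = 0.00240) under vehicle. Within slides the differences were 3.34 under fenofibrate (2 livers each on 1 slide) and 2.10 under vehicle (1 liver each).
Asns was also high in the liver line, including its wild-type mice. LKO livers averaged 3.97 ± 0.82 (SD, n = 5) under fenofibrate, against 3.40 ± 0.66 (SD, n = 5) in LWT livers. Under vehicle LKO livers averaged 3.99 ± 1.23 (SD, n = 4), against 2.79 ± 1.48 (SD, n = 4) in LWT livers. LKO and LWT overlapped and neither difference was called (0.57 ± 0.57, adjusted p = 0.482, under fenofibrate; 1.20 ± 0.64, adjusted p = 0.362, under vehicle).
LWT and WT mice both carry Ppara, yet every fenofibrate LWT liver (3.00, 3.05, 3.25, 3.16 and 4.57) was above every fenofibrate WT liver. That difference was 2.46 ± 0.61 with an adjusted p of 0.0627, and with slide as a block it was 2.77 with an adjusted p of 0.0288. Under vehicle LWT livers stood at 2.31, 4.59, 3.19 and 1.07, so that 1 of the 4 fell among the WT values, and the difference was 1.95 ± 0.64 (adjusted p = 0.152). Of all genes, 0.522% were called between LWT and WT under fenofibrate and 0.896% under vehicle, and none of the 10 members was called by limma in either (1 and 2 members with an unadjusted p under 0.05). For Asns, the part of Ppara and the part of the mouse line in the KO and WT difference cannot be told apart.

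Chac1 was higher in both knockouts under fenofibrate. In LKO livers it was at 2.02, 2.64, 2.54, 2.71 and 2.45, all above the fenofibrate LWT values given above, with a change of 1.00 ± 0.27 (2.01-fold, limma adjusted p = 0.00352). The difference was 0.87, 1.11 and 1.12 on the 3 slides that held both groups. In KO livers it was at 2.14, 2.75, 3.36, 3.51 and 3.70, and 1 of these 5 lay within the fenofibrate WT range, with a change of 1.15 ± 0.28 (2.22-fold, adjusted p = 0.00145). On the slide that held both groups the difference was 1.43.
Under vehicle Chac1 was at 2.87 ± 0.71 (SD, n = 3) in KO livers and 2.88 ± 0.37 (SD, n = 4) in WT livers, a change of -0.01 with a 95% interval from -0.66 to 0.65. It was at 2.56 ± 0.23 (SD, n = 4) in vehicle LKO livers and 2.10 ± 0.18 (SD, n = 4) in vehicle LWT livers (0.46 ± 0.30, adjusted p = 0.485). The 2 wild-type lines also differed in Chac1 under vehicle. LWT livers (1.99 to 2.38) all lay below WT livers (2.40 to 3.28), though the difference was not called (-0.77 ± 0.30, limma adjusted p = 0.245).

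Psat1 was lower in 3 of the 4 comparisons of a knockout with its wild type. It encodes phosphoserine aminotransferase, a step of serine synthesis, and its level was near the limit of the array (probe at chr19:15979622-15979681, mm9). Under vehicle it read -3.92, -4.29, -5.37 and -4.15 in LKO livers, none of them well above background, against -1.94, -1.61, -3.58 and -2.60 in LWT livers. Set against the lowest signals called well above background, Psat1 was at least 3.33-fold lower in vehicle LKO livers (limma adjusted p = 0.00207; measured means -4.43 and -2.43). With normexp and quantile normalization the Psat1 difference was -0.60 (adjusted p = 0.0418), so the bound holds only for the scaling used here.
Under fenofibrate it read -3.29, -3.17, -3.45, -3.80 and -3.63 in LKO livers, against -2.36, -2.90, -1.17, -1.81 and -0.43 in LWT livers, all of them above background and without overlap. That change was -1.73 ± 0.37 (adjusted p = 0.000498), and the 3 slides with both groups gave -2.13 to -1.60. In fenofibrate KO livers it read -4.19, -4.35, -3.66, -3.57 and -3.34, of which 3 of 5 were well above background, against -2.25, -2.17, -2.44 and -1.94 in WT livers. The change there was -1.62 ± 0.40 (adjusted p = 0.00141), at least 2.94-fold. With normexp and quantile normalization the fenofibrate differences were also smaller, at -0.78 in LKO minus LWT and -0.58 in KO minus WT, and both were called.
Under vehicle KO livers read -3.98, -3.02 and -2.49, with 2 of 3 well above background, against -3.02, -3.09, -2.31 and -2.88 in WT livers, and the groups overlapped (-0.34 ± 0.45, adjusted p = 0.613). The KO effect minus the LKO effect under vehicle gives no measured value for Psat1, since 0 of 4 vehicle LKO arrays and 2 of 3 vehicle KO arrays were well above background. In that test 8.27% of all genes but none of the 10 members were called by limma (1 member with an unadjusted p under 0.05). A second Psat1 probe was well above background on 5 of the 34 arrays and was not tested.

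**Figure D2:**
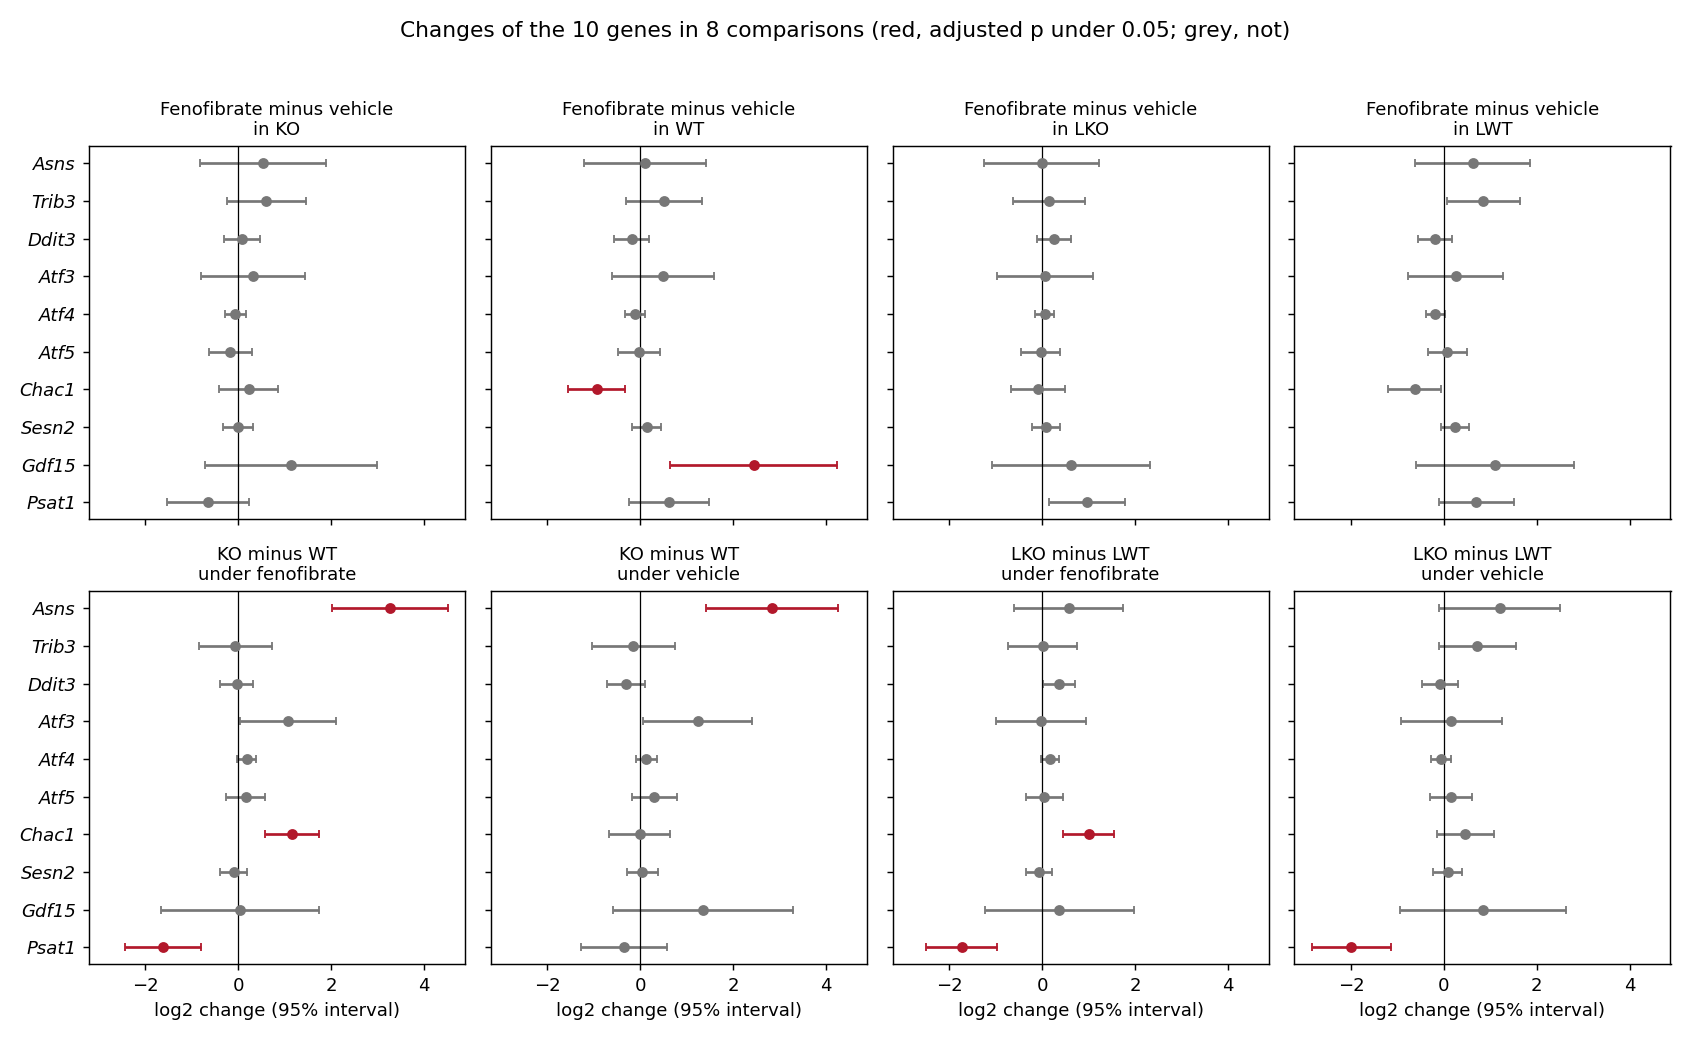
Log2 changes of the 10 genes (points) with 95% intervals (bars) in 8 comparisons, red where the limma adjusted p was under 0.05. Asns is called in KO minus WT under both treatments, and Psat1 in LKO minus LWT under both treatments and in KO minus WT under fenofibrate.

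By comparison, the knockout effects called 2 of 10 members in LKO minus LWT under fenofibrate (Chac1 higher, Psat1 lower), where 36.4% of all genes were called, and 1 of 10 under vehicle (Psat1), where 6.08% were called. KO minus WT called 3 of 10 under fenofibrate (Asns and Chac1 higher, Psat1 lower), where 43.1% of all genes were called, and 1 of 10 under vehicle (Asns), where 29.9% were called. The median change of the 10 genes was 0.12 in LKO minus LWT and 0.10 in KO minus WT under fenofibrate, against 0.01 and -0.00027 over all genes. With quantile normalization Atf4 was also called in LKO minus LWT and in KO minus WT under fenofibrate, which made the first split 2 higher and 1 lower.

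Atf3 and Gdf15 varied most among KO livers. Atf3 encodes a stress-induced repressor of the same family as ATF4 (probe at chr1:192994547-192994606, mm9). Exons could not be assigned to the probes here, as no annotation of that build was used. It was at 2.27, -1.04, -0.14, 0.79 and -0.62 in fenofibrate KO livers, against -0.44, -1.04, -1.08 and -0.73 in fenofibrate WT livers. Under vehicle it was at -1.98, 0.73 and 1.04 in KO livers, against -1.80, -1.02, -1.03 and -1.39 in WT livers. KO and WT overlapped under both treatments (1.07 ± 0.50, adjusted p = 0.0880, under fenofibrate; 1.24 ± 0.57, adjusted p = 0.103, under vehicle). All LKO and LWT livers lay between -1.84 and -0.40.
Gdf15 showed the same spread: 4.36, 1.16, 4.52, 5.50 and 5.00 in fenofibrate KO livers, and -1.09, 4.91 and 5.10 in vehicle KO livers. The first vehicle KO mouse was thus the lowest of all 34 for both genes, while the other two were among the 4 highest for Atf3. Without that mouse the KO minus WT difference under vehicle was 2.20 for Atf3 (adjusted p = 0.00262) and 3.38 for Gdf15 (adjusted p = 0.000761), against 1.24 and 1.35 (adjusted p = 0.300) with it. The fenofibrate response of Gdf15 in KO minus that in WT was -3.34 (adjusted p = 0.0145) without it. With 2 vehicle KO livers left, these values rest on few mice.

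Markers of other cell types were also called between KO and WT livers. Of 9 Kupffer cell and macrophage markers, 1 rose and 0 fell under fenofibrate (43.1% of all genes called) and 4 rose and 0 fell under vehicle (29.9% of all genes called). Their summed level under vehicle was 7.615, 8.96 and 6.95 in the KO livers, the last within the range of WT livers (6.72 to 7.27). Of the 8 measured neutrophil and lymphocyte markers, 2 rose and 3 fell under fenofibrate (median 0.21) and 3 rose and 1 fell under vehicle (median -0.18). Those that rose under vehicle were S100a8, S100a9 and Ptprc, and the B cell gene Cd79a fell. The summed level of this list under vehicle lay between 3.87 and 4.91 in KO livers, against 3.78 and 3.96 in WT livers. Under fenofibrate, 4 of 5 measured red blood cell markers rose and 0 fell (median 1.69), and 0 of 6 cholangiocyte markers rose and 4 fell (median -1.33). The cholangiocyte median was also -1.14 in fenofibrate-treated LWT minus WT, and 0.68 for fenofibrate against vehicle in WT livers, with 0 called in either. Of the 4 that fell, Krt7 and Epcam were above background on 29 and 22 of 34 arrays. Of 7 endothelial cell markers, 1 rose and 0 fell under fenofibrate. Under vehicle 3 of them rose and 2 fell, 71.4% of the list against 29.9% of all genes. Of 8 stellate cell markers, 0 rose and 2 fell under fenofibrate, and 0 rose and 1 fell under vehicle. Of the 2 measured adipocyte markers, Cfd was 5.92 lower in KO than in WT livers under fenofibrate, and Retn was not called. Fenofibrate itself raised Cfd by 5.32 in WT and by 2.91 in LWT livers. Adipoq, Plin1 and Lep did not pass the filter on dim probes. Pancreatic acinar cells are rich in Asns. Of the 8 acinar markers, Ctrb1 and Amy2a5 were above background on 34 of 34 arrays, Cela2a on 27, Cela1 on 14, and Prss2, Cpa1, Pnlip and Try4 on 0. Of the 4 measured acinar markers, 2 rose (Cela2a and Amy2a5) and 1 fell (Cela1) under fenofibrate, and 1 rose (Cela2a) and 0 fell under vehicle. Their summed level under fenofibrate lay between 3.98 and 4.40 in KO livers, against 3.54 and 3.75 in WT livers. The part of these cells in the results for Asns, Atf3 and Gdf15 was not tested, and in whole liver fewer cells of a type and less RNA per cell cannot be told apart.

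Atf4, Atf5, Ddit3, Sesn2 and Trib3 were called in none of the 14 comparisons. The Atf4 message, which encodes the factor itself, ran from 5.91 to 6.47 over all 34 livers, and its changes in the 10 comparisons of 2 groups lay between -0.19 and 0.19 (lowest adjusted p = 0.137). The widest 95% intervals of these reached -0.39 and 0.39. With the dimmer second Atf4 probe these changes ran from -0.13 to 0.33 and none was called.
Atf5, a related factor induced in the same response, ran from 6.99 to 8.14, with changes between -0.17 and 0.30 (lowest adjusted p = 0.363). Ddit3, which encodes the pro-apoptotic factor CHOP, ran from -0.60 to 0.65, with changes between -0.30 and 0.37 (lowest adjusted p = 0.0838). Sesn2, a sensor of leucine that restrains mTORC1, ran from 1.89 to 2.75, with changes between -0.10 and 0.23 (lowest adjusted p = 0.294). Trib3 ran from 0.46 to 3.00, the widest of these 5, with changes between -0.26 and 0.85 (lowest adjusted p = 0.128).

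Members could also vary together among mice of one group. Of the 45 pairs, after the group means were taken off, 1 was called by a two-sided permutation test within groups (100000 resamples, adjusted over the 45 pairs): Ddit3 with Gdf15, r = 0.65 (p = 0.00011, adjusted p = 0.00495) and rho = 0.72 (p = 2e-05, adjusted p = 9e-04) over 34 mice. Without the 2 mice farthest from the median for Ddit3, r was 0.64. With slide means taken off as well, r was 0.63 (adjusted p = 0.0302), and when each mouse was left out in turn it ran from 0.61 to 0.69. Atf3 with Gdf15 gave r = 0.60 (permutation p = 0.0719, adjusted p = 0.486) but rho = 0.21, and its largest deviations were those of the KO mice described above.

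**Figure D3:**
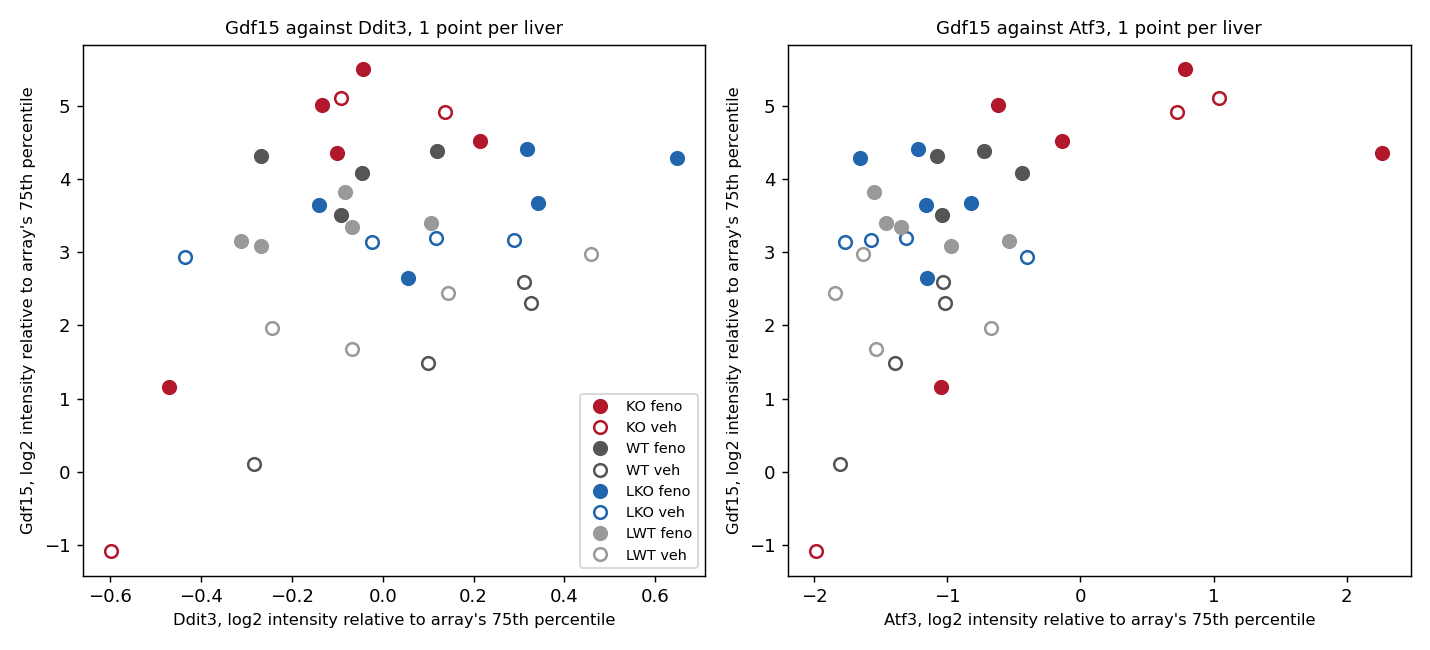
Gdf15 level (y axis) against Ddit3 level (left) and Atf3 level (right), in log2 intensity relative to the array's 75th percentile, with 1 point per liver, filled for fenofibrate and open for vehicle, in red for KO, dark grey for WT, blue for LKO and light grey for LWT. The vehicle KO mouse with Gdf15 at -1.09 lies lowest in both panels.

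Genes whose levels tracked the 4 members called by the F-test were named by their correlation over all 34 mice, with no test, since group differences drive much of it. For Asns these were Hal (r = 0.76), Slc7a2 (0.75) and Poldip3 (0.75), the first a histidine-degrading enzyme and the second a cationic amino acid transporter. For Atf3 they were Cytip (0.86), Rcan1 (0.85) and Unk (0.85). Psat1 tracked Slc6a21 (0.81), Fut1 (0.80) and the PPARA target Cyp4a10 (0.80), and Chac1 tracked Defb34 (0.80), 2510003B16Rik (0.80) and Cfi (0.78).

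Beyond the 10 genes, the endoplasmic reticulum and mitochondrial arms of the stress response were called in 1 direction by fenofibrate in WT and LWT livers. Of all genes, 21.3% were called in WT and 17.8% in LWT livers, 36.4% in fenofibrate-treated LKO minus LWT and 43.1% in fenofibrate-treated KO minus WT, and each list is set beside these shares. Of 15 genes of the ATF6 and XBP1 arm, which runs the folding machinery of the endoplasmic reticulum, fenofibrate called 0 higher and 6 lower in WT livers and 0 higher and 7 lower in LWT livers, with medians of -0.44 and -0.43 against -0.0027 and 0.0025 over all genes. Atf6, a sensor of this arm, fell by 0.71 ± 0.09 in WT livers (limma adjusted p = 4.52e-07) and by 0.46 ± 0.08 in LWT livers (adjusted p = 0.000142). In fenofibrate-treated LKO minus LWT, 9 rose and 0 fell (median 0.44), which is 60% of the list. In KO minus WT 6 rose and 1 fell under fenofibrate (median 0.32), or 46.7%, close to the share of all genes, and 3 rose and 3 fell under vehicle. Without the first vehicle KO mouse the vehicle counts were 1 and 2. The response of Atf6 differed between genotypes, by 0.72 ± 0.12 for LKO minus LWT (adjusted p = 0.000140) and 0.60 ± 0.12 for KO minus WT (adjusted p = 0.00153). Atf6 was the only 1 of the 15 genes called for LKO minus LWT, or 6.67%, against 6.7% of all genes. For KO minus WT 2 of the 15 were called, or 13.3%, against 11% of all genes. Within LKO and within KO livers fenofibrate called 0 of the 15, with medians of 0.019 and -0.26.

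Of 9 genes of the mitochondrial unfolded protein response, which includes the chaperones HSPD1 and HSPE1, fenofibrate called 6 higher and 0 lower in WT livers and the same counts in LWT livers (medians 0.27 and 0.34). Hspe1 averaged 6.58 ± 0.15 (SD, n = 4) in fenofibrate WT livers and 6.13 ± 0.14 (SD, n = 4) in vehicle WT livers. In fenofibrate-treated LKO minus LWT, 0 rose and 8 fell (median -0.45), and in KO minus WT 1 rose and 5 fell (median -0.39). The Hspe1 and Hspd1 responses were smaller in LKO than in LWT livers (-0.42 ± 0.11 and -0.38 ± 0.12, adjusted p = 0.0244 and 0.0460) and in KO than in WT livers (-0.58 ± 0.12 and -0.51 ± 0.12, adjusted p = 0.00197 and 0.00685). No other gene of the 9 was called in either test, so 22.2% of the list was called, against 6.7% and 11% of all genes.

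**Figure D4:**
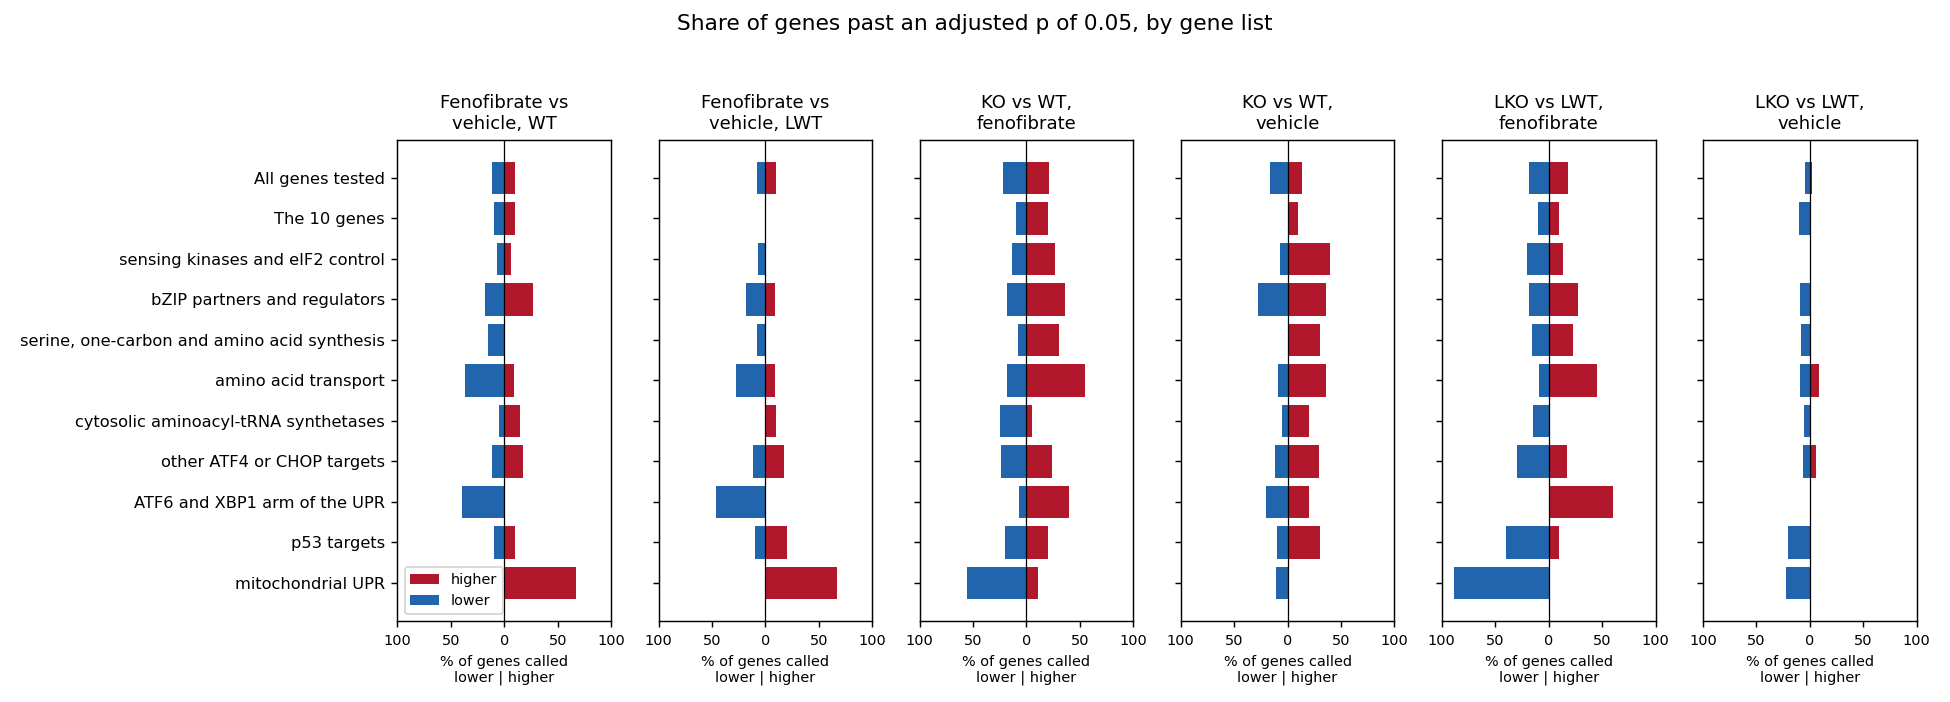
Share of genes called higher (red, to the right) and lower (blue, to the left) in 6 comparisons, for all genes tested, for the 10 genes and for 9 lists (x axis, percent of the genes measured; UPR, unfolded protein response). The ATF6 and XBP1 arm is lower and the mitochondrial list higher with fenofibrate in WT and LWT livers, and in LKO against LWT under fenofibrate the first is higher and the second lower.

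Genes of amino acid transport and synthesis were called in both directions. Of 11 measured amino acid transport genes, fenofibrate called 1 higher and 4 lower in WT livers (median -0.27) and 1 higher and 3 lower in LWT livers (median -0.02). Slc1a4, a neutral amino acid transporter and ATF4 target, averaged 3.63 ± 0.33 (SD, n = 4) in fenofibrate WT livers and 4.69 ± 0.46 (SD, n = 4) in vehicle WT livers. It averaged 6.06 ± 0.19 (SD, n = 5) in fenofibrate KO livers, a change of 2.43 ± 0.18 against fenofibrate WT (limma adjusted p = 2.50e-12), and the change in LKO minus LWT was 1.72 ± 0.17 (adjusted p = 1.59e-09). The drug response of Slc1a4 differed from that of the wild type by 1.38 in both knockouts (adjusted p = 0.000507 for LKO minus LWT and 0.000767 for KO minus WT). These response tests called 1 of the 11 transport genes for LKO minus LWT (9.09%, against 6.7% of all genes). For KO minus WT they called 2 of the 11 (18.2%, against 11% of all genes). The glycine transporter Slc6a9 went the other way from Slc1a4, at -1.24 ± 0.13 in fenofibrate-treated KO minus WT (adjusted p = 7.95e-09). In that comparison 6 transport genes rose and 2 fell, and in fenofibrate-treated LKO minus LWT 5 rose and 1 fell, which are 72.7% and 54.5% of the list, against 43.1% and 36.4% of all genes.

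Among 13 measured genes of serine, one-carbon and amino acid synthesis, 4 rose and 1 fell in fenofibrate-treated KO minus WT and 4 rose and 0 fell under vehicle (medians 0.18 and 0.15). Without the first vehicle KO mouse the vehicle counts were 3 and 1, with a median of -0.09. Got1, an aspartate aminotransferase, led these at 1.97 ± 0.17 under fenofibrate (adjusted p = 6.59e-11) and 1.31 ± 0.19 under vehicle (adjusted p = 5.49e-06). Cth, which makes cysteine, rose by 1.32 ± 0.18 and 1.21 ± 0.20. Under fenofibrate and vehicle Cth averaged 6.76 and 6.79 in LWT livers, against 6.07 and 6.13 in WT livers. In LKO livers it averaged 6.53 and 7.15. The part of the mouse line in the KO and WT difference of Cth was not tested. Got1 fell with fenofibrate by 0.70 in WT livers and by 0.67 in LWT livers. Shmt2, a serine hydroxymethyltransferase, was 0.39 lower in KO than in WT livers among fenofibrate-treated mice. The calls made up 38.5% of the list under fenofibrate, against 43.1% of all genes, and 30.8% under vehicle, against 29.9%.

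Of 15 sensing kinases and eIF2 regulators, 4 rose and 2 fell in fenofibrate-treated KO minus WT and 6 rose and 1 fell under vehicle (7 and 2 without the first vehicle KO mouse). These are 40% of the list under fenofibrate, against 43.1% of all genes, and 46.7% under vehicle, against 29.9%. Eif2ak2, the kinase PKR, rose by 1.27 ± 0.13 and 1.15 ± 0.15, and Eif2ak3, the kinase PERK, rose by 0.66 ± 0.16 under fenofibrate. In the liver line Eif2ak2 averaged -0.61 in LKO and -0.74 in LWT livers under fenofibrate, and -0.50 and -0.81 under vehicle. Eif2ak3 also rose by 0.90 ± 0.15 in fenofibrate-treated LKO minus LWT (adjusted p = 2.10e-05). Of 17 other ATF4 or CHOP targets, 4 rose and 4 fell in fenofibrate-treated KO minus WT and 3 rose and 5 fell in LKO minus LWT, 47.1% of the list in both, against 43.1% and 36.4% of all genes. Ddit4, an inhibitor of mTORC1, rose by 1.73 ± 0.34 in KO minus WT and by 1.44 ± 0.32 in LKO minus LWT under fenofibrate. Under vehicle Ddit4 averaged 7.48 ± 0.52 (SD, n = 3) in KO livers and 5.49 ± 0.86 (SD, n = 4) in WT livers. The vehicle averages were 7.10 ± 0.57 (SD, n = 4) in LKO livers and 5.72 ± 0.59 (SD, n = 4) in LWT livers. Fgf21, a liver hormone that PPARA also controls, was well above background on 1 of 5 fenofibrate KO and 2 of 5 fenofibrate LKO arrays, against all WT and LWT arrays. It was at least 38.7-fold lower in KO minus WT (measured means -5.87 and 0.98, adjusted p = 1.59e-09) and at least 66.7-fold lower in LKO minus LWT (measured means -4.95 and 1.93, adjusted p = 6.44e-10) under fenofibrate. Fgf21 was low under vehicle too, well above background on 1 of 3 KO and 1 of 4 LKO arrays. There it was at least 9.75-fold lower in KO minus WT (limma adjusted p = 2.78e-05) and at least 42.2-fold lower in LKO minus LWT (adjusted p = 2.61e-08). Like those of Psat1, the Fgf21 bounds are set against the lowest signals called well above background. They were worked out only for the scaling used here, and their size under the other normalizations was not tested.

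Of the 20 cytosolic aminoacyl-tRNA synthetase genes, 1 rose and 5 fell in fenofibrate-treated KO minus WT, and 0 rose and 3 fell in LKO minus LWT, where quantile normalization gave 3 higher and 2 lower. The calls made up 30% and 15% of that list, below the shares of all genes. Of 11 bZIP partners and regulators, 4 rose and 2 fell in KO minus WT and 3 rose and 2 fell in LKO minus LWT under fenofibrate, with Creb3l3, a liver factor of fasting, at -0.64 ± 0.07 and -0.80 ± 0.07. Of 10 measured p53 targets, which share Gdf15 and Sesn2 as known p53-regulated genes, 2 rose and 2 fell in KO minus WT and 1 rose and 4 fell in LKO minus LWT.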

How the data were processed

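Each array file held scanner output from Agilent Feature Extraction 10.10.1.1 for 1 liver, with a processed signal that was background-subtracted per the file headers and is an intensity on a linear scale. The deposited table of the authors' values is on a log2 scale and was used only as an alternative. The submitters' processing notes name limma, and the build of the probe positions is mm9 per the file headers. The processed signal was averaged over the spots of a probe, leaving out spots marked as outliers (88 values missing among tested genes). The log2 of that mean was then taken and the array's 75th percentile subtracted. Between 50.6% and 63.1% of probes were well above background per array, and no spot was saturated; the number of arrays limits the precision. Probes were kept when all arrays of 1 or more groups read them well above background, and the brightest probe stood for a gene. Gene names were updated through RefSeq where the probe accession matched (27235 of 55681 probes), and 22501 probes had no name. A model with 8 group means was fitted with limma 3.58.1 (R 4.3.3) and tested in 14 comparisons, with Benjamini-Hochberg adjustment over 16079 genes and a threshold of 0.05. The procedure was tested on simulated data.
Each array was of a separate mouse, per the labels. The scanner files name 5 slides, which were used as a block in an alternative. The other alternatives were normexp with an offset of 50 and quantile normalization, quantile normalization alone, no filter, a filter on all arrays, the mean of a gene's probes, the replicate number as a block and each array left out. Same-numbered mice deviated together in LKO minus LWT (r 0.12 to 0.29), KO minus WT (0.12 to 0.40) and LWT minus WT (0.10 to 0.23) under vehicle, where 3, 1 and 3 pairs shared a slide, and not in the other 7 comparisons. The series text speaks of 36 samples, of which 34 were analysed. Named genes were the 10 members, the genes most like each member called by the F-test, for each list up to 4 called genes a comparison with the largest absolute log2 change, and genes on which a result turned. The members and lists were chosen with earlier results of these data known.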

Additional observations from a re-analysis of the deposited data

Results flagged for a closer look

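In 6 of the 70 sets of 1 gene in 1 group, a single liver stood far from the others, where chance alone marks about 1 in 20 sets. The vehicle KO group (n = 3) was too small for this check, so none of its livers could be flagged. Asns was at 5.41 in the fifth fenofibrate LKO mouse and at 4.57 in the fifth fenofibrate LWT mouse, both above the other 4 of their groups. Trib3 was at 1.18 (1.175) in the fourth vehicle WT mouse, below the other 3. Chac1 was at 2.38 (2.375) in the second vehicle LWT mouse, above the other 3. Sesn2 was at 2.66 in the fourth vehicle LKO mouse. Gdf15 was at 1.16 in the second fenofibrate KO mouse, below the other 4, which lay between 4.36 and 5.50.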

How the results depend on the processing

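No called value of a member changed sign under any alternative, while 43 of 1037 uncalled values did under the 8 settings. Both Asns calls, the Chac1 calls in LKO minus LWT and KO minus WT under fenofibrate and the 3 Psat1 calls held in all 34 fits that left out 1 array and in every alternative that measured the gene, with Psat1 at -0.60, -0.78 and -0.58 under normexp and quantile normalization. The members called for fenofibrate in WT livers, 2 in the reported fit, were 1 with quantile normalization, 0 in the authors' deposited table, 1 with no filter and 0 with slide as a block. With only probes well above background on all arrays Psat1 was not measured, which left 0 in LKO minus LWT under vehicle and 1 under fenofibrate. With slide as a block LWT minus WT under fenofibrate called 1 (Asns). With the replicate number as a block, Ddit3 joined LKO minus LWT under fenofibrate (0.37, adjusted p = 0.0376), making 3, and no other count changed. Atf4 was called under fenofibrate in LKO minus LWT (0.26 to 0.30) and in KO minus WT (0.25 to 0.27) with both quantile settings and in the authors' deposited table. Leaving out 1 array gave 3 to 6 members for the F-test, 0 to 2 for fenofibrate in WT livers, 1 to 1 for LKO minus LWT and 1 to 3 for KO minus WT under vehicle, 2 to 3 and 3 to 5 for the same under fenofibrate, 0 to 1 for LWT minus WT under fenofibrate, 0 to 2 for the KO minus WT response and 0 to 1 for the KO minus LKO effect. Without the first vehicle KO mouse, Chac1 was called in the KO minus WT response (1.48, adjusted p = 0.0240). Of the 45 correlated pairs 1 was called, 1 to 3 when a mouse was left out, and 2 with slide means taken off. Groups of 3 to 5 mice limit what could be called, and Psat1 is limited by signal near background.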
